A study of Mus musculus with 8 samples.

Results

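Prdm12 and the 7 genes listed as its immediate neighbours on mouse chromosome 2 were followed through 8 RNA sequencing libraries. They are Prdm12, Gm13425, Exosc2, Gm13427, Fubp3, Abl1, Ass1 and Fibcd1, all within 0.2 Mb of Prdm12 when measured to the nearest end of each gene in mm10. The 8 members were found by Ensembl identifier among 38355 genes in each file, and all 8 were among the 16068 genes with enough reads to test. The members were listed by position, with earlier results of these data known. The same window holds 5 annotated genes that are not listed, and those in the files had 0 to 79 counts in all. Each library held total RNA of dorsal root ganglia dissected together with spinal cord from C57Bl6 mouse embryos at embryonic day E11.5. The series gives the level as thoracic. One group of 4 libraries came from wild-type embryos (WT, genotype Wild Type) and the other group of 4 from embryos with both copies of Prdm12 disrupted (KO, genotype Prdm12-/-). No Cre, transgene or treatment is named for either group, and the labels do not say which part of Prdm12 was removed or whether embryos were pooled. The series text mentions triplicates, whereas 4 libraries per group are listed. Nothing in the labels states that libraries came from separate embryos, so the p-values measure only the spread between these libraries. The comparison sets the transcript levels of Prdm12 and of the genes beside it in KO against those in WT. For the neighbours, effects of the altered DNA at the locus and of losing the Prdm12 protein cannot be told apart in this design.

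Prdm12 encodes a transcriptional regulator with a PR domain and zinc fingers. It is known for its role in the sensory lineage that gives rise to pain-sensing neurons, and for its expression in a ventral progenitor domain of the spinal cord whose neurons become V1 interneurons. Proteins of this kind can act as repressors by bringing histone methyltransferases such as G9a (gene Ehmt2) to DNA. The neighbours have other textbook roles. Exosc2 encodes a cap subunit of the RNA exosome, the complex that trims and degrades RNA. Fubp3 encodes a single-strand nucleic acid binding protein of the FUSE-binding family. Abl1 encodes a non-receptor tyrosine kinase that acts on the cytoskeleton. Ass1 encodes argininosuccinate synthase, which joins citrulline and aspartate in the urea cycle and in the recycling of arginine. Fibcd1 encodes a membrane receptor with a fibrinogen-like domain. Gm13425 and Gm13427 are annotated as non-coding antisense genes.

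In GENCODE M21, on the same assembly as mm10, Prdm12 (ENSMUSG00000079466) runs on the plus strand from 31640037 to 31655795 in 5 exons that add up to 2471 bases. Gm13425 (ENSMUSG00000085224, 31633453 to 31640589) runs the other way across the start of Prdm12. Its exon 2 (31640043 to 31640242, 200 bases) lies wholly inside exon 1 of Prdm12 (31640037 to 31640321), so 8.09% of the exon bases of Prdm12 and 3.71% of those of Gm13425 are shared. Its exon 3, of 5178 bases, ends upstream of Prdm12. Gm13427 (31676364 to 31688469, minus strand) shares 358 of its 794 exon bases with Exosc2 (31670715 to 31681349) and 94 with the first bases of Abl1 (31688376 to 31804227). Whether counting used strand is not given in the sources used here, and without strand the reads of such pairs cannot be told apart. Upstream of Prdm12 lie Fubp3 (31572651 to 31617526) and Ass1 (31470207 to 31520672), whose near end is 119.4 kb away. Downstream, beyond Abl1, lies Fibcd1 (31813290 to 31846005, minus strand), whose start is 206.0 kb from that of Prdm12 and whose near end is 157.5 kb from its end.

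Sequences are shown for the 2 members that fell, as the 250 bases before and the first 30 bases after the start that RefSeq gives (GRCm38.p6, plus strand), with the transcribed bases in capitals. The RefSeq start of Prdm12 is also that of GENCODE, while the RefSeq start of Ass1 lies inside the GENCODE gene. The windows are chr2:31639787-31640066 for Prdm12 and chr2:31470020-31470299 for Ass1. A 144-base stretch (chr2:31640099-31640242, GENCODE M21 transcript, plus strand) is the coding part of Prdm12 that the antisense exon of Gm13425 also covers, with the start codon in capitals.
Prdm12 start: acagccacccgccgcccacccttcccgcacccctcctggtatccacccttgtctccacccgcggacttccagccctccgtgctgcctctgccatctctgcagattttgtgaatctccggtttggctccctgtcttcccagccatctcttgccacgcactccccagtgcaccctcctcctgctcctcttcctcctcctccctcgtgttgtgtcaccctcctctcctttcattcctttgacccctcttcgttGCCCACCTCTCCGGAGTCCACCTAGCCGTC
Ass1 start: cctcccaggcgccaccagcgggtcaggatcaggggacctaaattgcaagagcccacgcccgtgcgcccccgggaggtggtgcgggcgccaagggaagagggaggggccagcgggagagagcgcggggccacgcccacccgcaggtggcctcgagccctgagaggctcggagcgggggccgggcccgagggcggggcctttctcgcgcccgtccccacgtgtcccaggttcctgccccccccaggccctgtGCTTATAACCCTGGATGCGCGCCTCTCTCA
Prdm12 coding bases shared with Gm13425: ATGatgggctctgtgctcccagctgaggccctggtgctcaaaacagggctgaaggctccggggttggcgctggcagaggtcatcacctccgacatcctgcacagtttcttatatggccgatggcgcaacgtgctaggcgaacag

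The Prdm12 window had a GC content of 62.1% with 12 CpG pairs, and the Ass1 window 73.6% with 25, against a median GC content of 52.5% over 32851 such windows. Both strands were searched for CANNTG (the E-box read by basic helix-loop-helix factors), the TATA box TATAAA, the CCAAT box and the GC box GGGCGG. The Prdm12 window held 0 E-boxes and 1 GC box, and the Ass1 window held 2 and 1. Over all windows of this length 70.1% held an E-box and 34.7% a GC box. The TATA and CCAAT boxes, held by 13.1% and 36.1% of all windows, had 0 matches in both. These counts describe letters in the windows and not binding. RefSeq promoter entries were matched for 7 of the 8 members.

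Library totals ran from 23088908 to 28500792 counts except in WT replicate 1, which had 67782435, 2.55 times the median of the others. Levels are in counts-per-million units (CPM, on library sizes scaled by TMM). In the shallowest library 23 counts make up 1 CPM. Markers of the labelled tissues were found, and so were markers of tissues that the labels do not name. Erythroid markers (4 genes) summed to 3003.4 to 3910.4 CPM in WT and 2131.0 to 4968.5 in KO. Endothelial markers (3 genes) summed to 267.4 to 299.4 CPM in WT and 262.7 to 314.8 in KO. The summed level of 8 sensory neuron markers was 378.7 to 479.7 CPM in WT and 331.7 to 378.6 in KO, that of 7 spinal cord markers 318.6 to 360.9 and 262.5 to 314.4, and that of 3 liver markers, Alb among them, at most 0.481. Muscle markers (5 genes) summed to 433.7 to 526.1 CPM in WT and 487.7 to 706.8 in KO, and mesenchyme markers (6 genes) to 1757 to 2414 and 2284 to 2599, with 0 of these 11 genes called. Crest-derived glial markers (4 genes) summed to 173.9 to 231.2 CPM in WT and 207.8 to 225.2 in KO. Of the sensory, spinal cord and glial markers 2 of 8, 0 of 7 and 1 of 4 fell, where 0.243% of all tested genes were called as lower. The sensory sums of the groups nearly touched, at 378.7 CPM for the lowest WT and 378.6 for the highest KO library. In bulk tissue, fewer cells of a type and less RNA per cell cannot be told apart.

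Of the 8 members, 2 fell in KO and 0 rose, at an adjusted p under 0.05 in edgeR's quasi-likelihood test over all tested genes. Prdm12 fell 25.9-fold and Ass1 fell 1.74-fold. Since Prdm12 is the disrupted gene, the shares of all tested genes below are a background for the 7 neighbours, of which 1 fell. Among all tested genes 0.299% were called, 0.243% as lower and 0.056% as higher. All 4 KO libraries lay below all 4 WT libraries for 3 members, namely Prdm12, Gm13425 and Ass1, an order that 2.45% of all tested genes showed. The reverse order held for 0 members and 1.69% of all tested genes, so 4.14% had groups apart in either direction. The other 5 members overlapped between groups. The median log2 fold change of the 7 neighbours was −0.06, against −0.003 over all tested genes. Within 1 Mb of Prdm12, 43 other genes were tested and Ass1 was the 1 called. The call of Ass1 was lost in 10 of 16 alternative analyses, as given beside its values, so the count of members that fell was then 1. In 4 of the other alternatives Gm13425 passed as well.

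**Figure D1:**
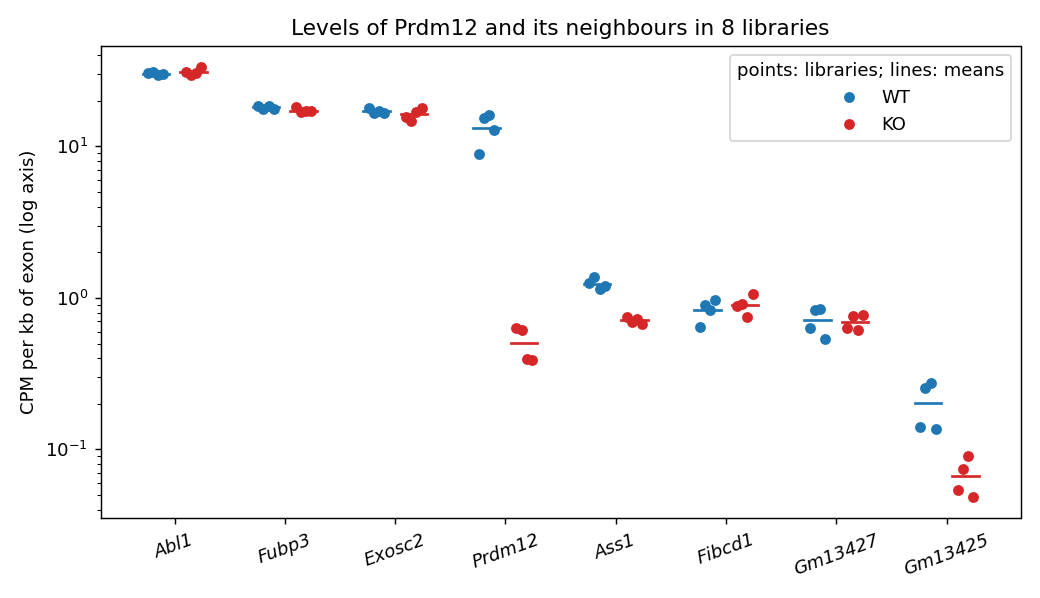
Level of each member in every library, as CPM per kb of exon on a log axis, ordered by the WT mean. Points are libraries (blue WT, red KO) and lines are group means. Prdm12 drops from a WT mean of 13.3 to a KO mean of 0.507 and Ass1 from 1.24 to 0.711, while the points of Abl1, Fubp3, Exosc2, Fibcd1 and Gm13427 overlap between groups.

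Libraries are given in replicate order throughout, from 1 to 4. Prdm12 was counted 1492, 1027, 1009 and 907 times in the WT libraries, and 43, 38, 26 and 22 times in the KO libraries. Scaled for depth these were 22.2 to 39.6 CPM in WT and 0.962 to 1.55 CPM in KO. The groups were far apart. The lowest WT library was WT replicate 1, the most deeply sequenced, and its 95% exact binomial interval of 21.1 to 23.3 CPM did not reach the 29.9 CPM lower bound of the next WT library. These intervals cover counting error only. The WT mean was 32.9 ± 7.86 CPM and the KO mean 1.25 ± 0.329 CPM (SD, 4 libraries each), so KO libraries kept 3.81% of the WT level. The log2 fold change of KO over WT was −4.70 (SE 0.24, 95% interval −5.24 to −4.15, adjusted p = 0.000124 in edgeR's test), the smallest p of all tested genes. It stayed between −5.09 and −4.58 in all 16 alternatives and passed in each. This drop checks the genotype labels. The gene counts do not show which exons the remaining KO reads came from.

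Gm13425, the antisense gene across the Prdm12 start, was counted 51, 37, 38 and 21 times in the WT libraries and 8, 10, 13 and 6 times in the KO libraries. Its level was 0.758, 1.37, 1.49 and 0.74 CPM in WT and 0.289, 0.4, 0.487 and 0.262 CPM in KO. WT replicates 1 and 4 were close to the KO range, though above it. The log2 fold change was −1.53 (SE 0.33, 95% interval −2.24 to −0.81), a KO level of 33.1% of WT. It did not pass over all genes in edgeR's test (adjusted p = 0.133). It passed with DESeq2 (adjusted p = 0.0318), limma-voom (adjusted p = 0.0404), edgeR on unfiltered genes (adjusted p = 0.0291) and edgeR without WT replicate 1 (adjusted p = 0.0272). In the other 11 of the 15 alternatives that gave a value it did not pass, with adjusted p up to 0.423.

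The 2 genes at the Prdm12 start did not keep one ratio. The Gm13425 count was 3.42%, 3.6%, 3.77% and 2.32% of the Prdm12 count in the WT libraries, and 18.6%, 26.3%, 50.0% and 27.3% in the KO libraries. Every KO library had a higher share than any WT library. The log2 ratio of the counts, with 0.5 added to each, was −4.94 ± 0.31 in WT and −1.75 ± 0.57 in KO (SD, 4 libraries each). The difference of 3.19 gave p = 0.029 in a two-sided exact permutation test, the smallest p that 4 against 4 libraries allow. Prdm12 is the disrupted gene, so a gene that did not change would also separate the groups on this ratio. The p is therefore not particular to Gm13425. The KO level was 33.1% of WT for Gm13425 and 3.81% for Prdm12. The shared stretch printed above bears on the scale of these counts. Spread evenly over its exons, the Prdm12 count came to 73.4 to 121 per 200 exon bases in WT and 1.78 to 3.48 in KO, beside whole-gene Gm13425 counts of 21 to 51 and 6 to 13. The part of reads from the shared bases in the Gm13425 values was not tested.

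**Figure D2:**
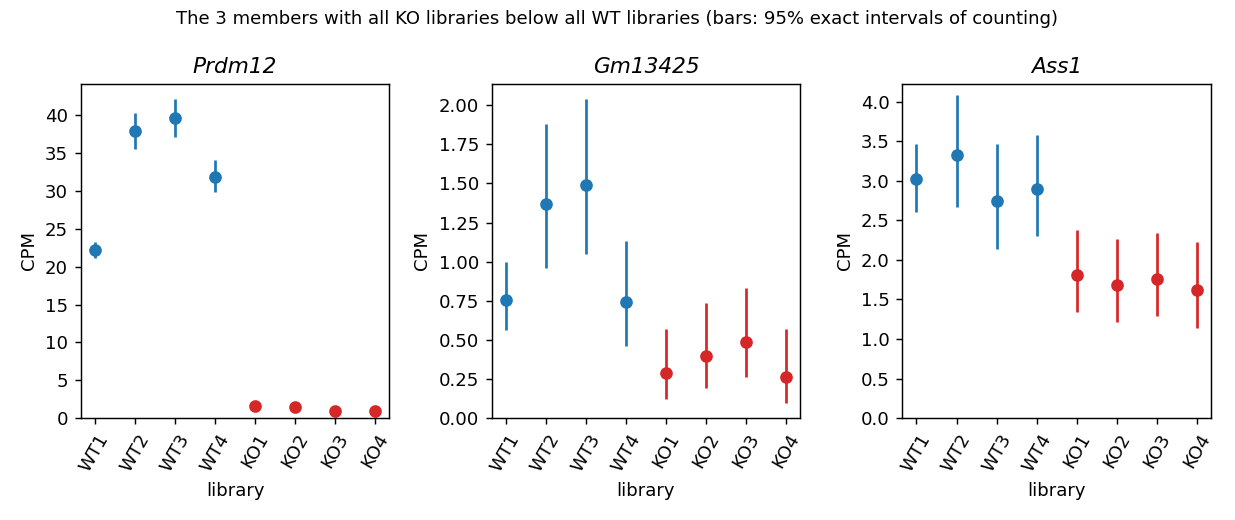
CPM of Prdm12, Gm13425 and Ass1 in each library, each on an axis from 0, with 95% exact binomial intervals of the counts as bars (blue WT, red KO). In each panel the 4 KO points lie below the 4 WT points, by the widest margin for Prdm12. Counting intervals of the groups overlap for Gm13425 (WT replicates 1 and 4 with KO libraries) and for Ass1. There the interval of WT replicate 3, from 2.14 CPM, overlaps those of all 4 KO libraries. That of WT replicate 4, from 2.3 CPM, overlaps those of KO replicates 1 and 3, up to 2.38 and 2.34.

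Ass1 was the neighbour that passed the test. It was counted 203, 90, 70 and 82 times in the WT libraries and 50, 42, 47 and 37 times in the KO libraries. Its level was 3.02, 3.32, 2.74 and 2.89 CPM in WT and 1.81, 1.68, 1.76 and 1.62 CPM in KO. The library values of the groups did not overlap, though the 95% exact counting intervals of WT replicates 3 and 4 did overlap those of KO libraries. Means were 2.99 ± 0.246 (WT) and 1.72 ± 0.0839 CPM (KO) (SD, 4 libraries each). The log2 fold change was −0.80 (SE 0.13, 95% interval −1.07 to −0.52, adjusted p = 0.023 in edgeR's test). Ass1 was lower in KO in all 16 alternatives, between −0.84 and −0.70 on the log2 scale, with adjusted p from 0.00467 to 0.435. It passed with DESeq2 (adjusted p = 0.00467), limma-voom (adjusted p = 0.0162), library totals, other filters and without WT replicate 1 (adjusted p = 0.0246 in edgeR). In edgeR it did not pass without any 1 of WT replicates 2 to 4 or KO replicates 1 to 4 (adjusted p = 0.0639 to 0.0979), nor with WT replicate 1 thinned, in 1 random draw, to the depth of the others (adjusted p = 0.123), nor with a replicate block (adjusted p = 0.119). Adding a score of muscle and mesenchyme markers to the edgeR fit left −0.78 with an adjusted p = 0.435. That score was 6.78 to 7.05 log2 CPM in WT and 7.02 to 7.29 in KO. Its part in the Ass1 result, and that of the lower spinal cord and sensory marker sums in KO, was not tested.

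**Figure D3:**
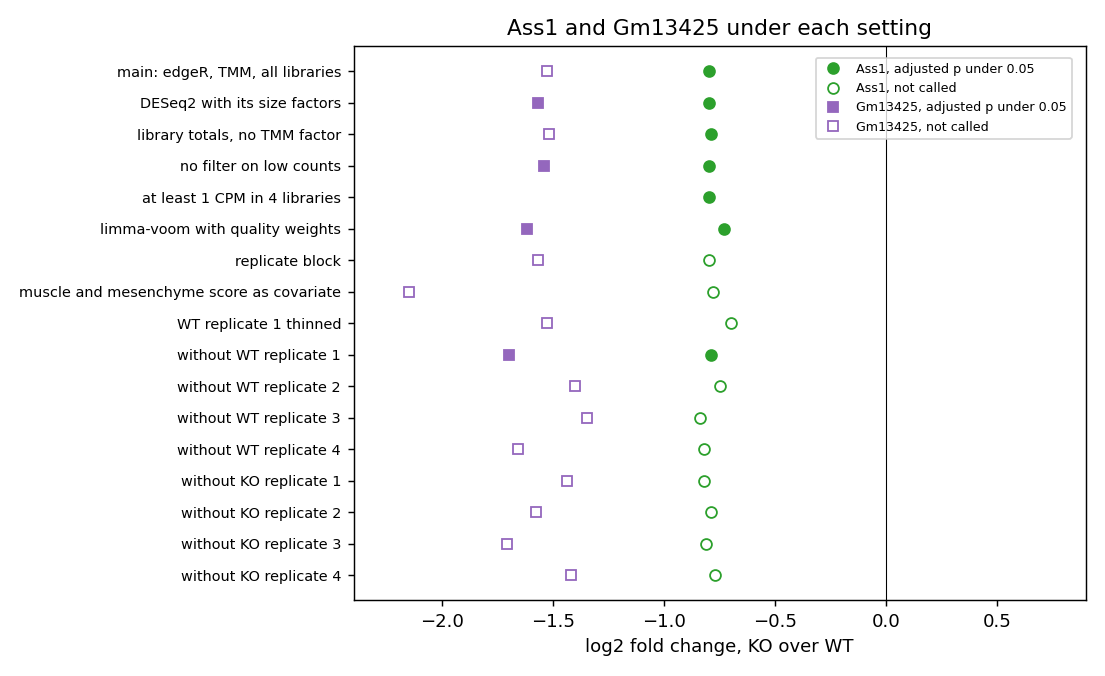
Log2 fold change of Ass1 (green circles) and Gm13425 (purple squares) in the analysis reported and in each alternative, with filled symbols where the adjusted p was under 0.05. Every symbol lies left of 0, Ass1 between −0.84 and −0.70 and Gm13425 between −2.15 and −1.35, and which of them are filled changes from setting to setting.

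The genes that Ass1 works with did not pass. Of 14 other genes of arginine synthesis and use, 11 were tested and 0 were called, with a median log2 fold change of −0.04 (−0.003 over all tested genes) and a range of −0.42 to 0.12. Asl, which encodes the enzyme after argininosuccinate synthase, averaged 19.0 (WT) and 18.4 CPM (KO). The list's smallest p belonged to Slc7a1, the main cationic amino acid transporter gene (54.9 CPM in WT, 49.1 in KO, log2 fold change −0.16, adjusted p = 0.337 in edgeR's test). Next came Nos1, the neuronal nitric oxide synthase gene (−0.42, adjusted p = 0.813), and Odc1, the ornithine decarboxylase gene (−0.10, adjusted p = 0.917). Otc, Cps1 and Nags, urea cycle genes of the liver, had too few reads to test.

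Exosc2, whose start is 30.7 kb downstream, stood at 51.5, 47.5, 49.7 and 47.7 CPM in the WT libraries and 45.2, 42.6, 48.8 and 51.7 CPM in the KO libraries. KO replicate 4 was above every WT library and KO replicates 1 and 2 were below every one. The log2 fold change was −0.06 (95% interval −0.20 to 0.07, adjusted p = 0.94 in edgeR's test), so the interval runs from 0.872 to 1.05 times the WT level. Of 14 listed exosome subunits and cofactors, 13 were tested and 0 were called, with a median log2 fold change of −0.03. Those with the smallest p were the cofactor gene C1d (0.09, adjusted p = 0.839), Exosc5 (0.11, adjusted p = 0.869) and Exosc3 (−0.10, adjusted p = 0.901), all in edgeR's test.

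Gm13427, antisense to Exosc2 and to the start of Abl1, was counted 34, 18, 17 and 12 times in WT and 14, 15, 13 and 14 times in KO. It averaged 0.565 ± 0.121 (WT) and 0.551 ± 0.064 CPM (KO) (SD, 4 libraries each), with full overlap. Between groups the log2 fold change was −0.01 with a 95% interval of −0.52 to 0.49 (adjusted p = 0.999 in edgeR's test). At this depth a change of up to 1.41-fold either way would lie within the interval. Its sign flipped to positive in 4 of the 8 fits that left out 1 library.

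Fubp3, 22.5 kb upstream at its nearest end, stood at 109.0, 104.8, 109.3 and 104.7 CPM in the WT libraries and 107.2, 99.6, 100.4 and 100.3 CPM in the KO libraries. In KO 3 libraries lay below every WT library, and KO replicate 1 lay among the WT libraries. On the log2 scale the difference was −0.07 (SE 0.04, 95% interval −0.16 to 0.02, adjusted p = 0.855 in edgeR's test). A change beyond 0.896 to 1.01 times the WT level lies outside this interval. Of 7 related genes 0 were called, with a median of −0.02. Pcbp2 and Hnrnpk, which encode other KH-domain proteins, had log2 fold changes of 0.07 and −0.05, and Myc, the gene whose upstream element gave the family its name, 0.08 (adjusted p = 0.869 to 0.941 in edgeR's test).

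Abl1 was the most abundant member, at 350.9, 356.8, 344.0 and 348.6 CPM in the WT libraries and 358.4, 342.7, 353.4 and 384.8 CPM in the KO libraries. The KO libraries spread on both sides of the WT libraries. KO over WT this was 0.04 on the log2 scale (SE 0.04, 95% interval −0.06 to 0.14, adjusted p = 0.951 in edgeR's test), with 88676 counts behind it. Of 12 partners and substrates of the kinase 0 were called, with a median of −0.06 and 11 of 12 below 0. The smallest p values were those of Abi2, an adaptor of actin regulation (−0.12, adjusted p = 0.664), the paralogue Abl2 (−0.13, adjusted p = 0.751) and Rin1 (−0.23, adjusted p = 0.869), all in edgeR's test.

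Fibcd1 stood at 3.06, 4.24, 3.96 and 4.61 CPM in the WT libraries and 4.23, 4.36, 3.56 and 5.03 CPM in the KO libraries. WT replicate 1 was the lowest library and KO replicate 4 the highest. Its log2 fold change was 0.13 (95% interval −0.21 to 0.46, adjusted p = 0.956 in edgeR's test). It was 0.01 without WT replicate 1 and −0.16 once that marker score was added to the fit. Of 10 other genes of proteins with a fibrinogen-like domain, 9 were tested and 0 were called, with a median of 0.10. Angptl1 (0.24, adjusted p = 0.813), Fcna (0.53, adjusted p = 0.825) and Angptl2 (0.11, adjusted p = 0.869) had the smallest p in edgeR's test, and Fcna rested on 92 counts in all.

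**Figure D4:**
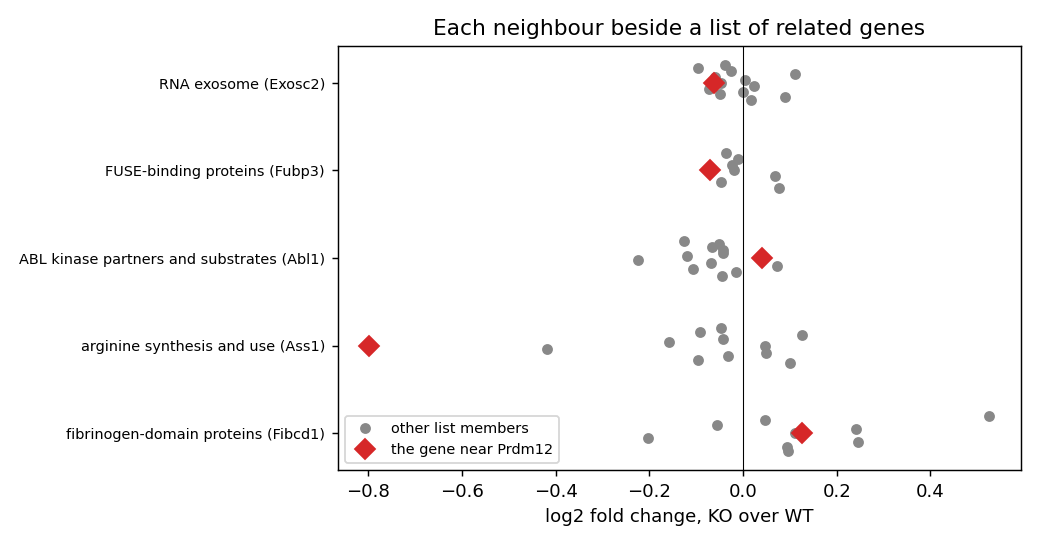
Log2 fold change of KO over WT for the 5 coding neighbours (red diamonds) and for the tested members of a list of related genes (grey points). Ass1 at −0.80 lies left of every gene of its list, Fubp3 at −0.07 lies just left of its own, and Exosc2, Abl1 and Fibcd1 lie within theirs.

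Per kb of exon, the WT order of levels was Abl1 (30.2 ± 0.46 CPM per kb), Fubp3 (18.1 ± 0.427), Exosc2 (17.0 ± 0.645), Prdm12 (13.3 ± 3.18), Ass1 (1.24 ± 0.102), Fibcd1 (0.835 ± 0.139), Gm13427 (0.711 ± 0.152) and Gm13425 (0.202 ± 0.0733; SD, 4 libraries each). The ranges of the WT libraries overlapped between Fubp3 and Exosc2 and between Fibcd1 and Gm13427. Within each WT library Fubp3 was above Exosc2. Fibcd1 was above Gm13427 except in WT replicate 3 (0.833 against 0.839), so that pair is not ordered beyond its spread. In KO, Prdm12 at 0.507 ± 0.133 CPM per kb stood below Ass1 (0.711 ± 0.0348), with overlap between Prdm12 and Gm13427 (0.694 ± 0.0806; SD, 4 libraries each). Within each KO library Prdm12 was below Gm13427, by the least in KO replicate 1 (0.629 against 0.637). Of the members Gm13425, at 0.0667 ± 0.0193, had the lowest KO level.

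The rule's window holds 13 annotated genes, of which 5 are not listed members. The processed pseudogenes Gm13424 and Gm13426 were counted 0 times. For reads that the counting assigns to 1 gene, this allows up to 0.012 CPM over the 8 libraries together. How reads shared with near-identical copies were treated is not given, so no bound on those follows. Qrfp, a neuropeptide gene between Abl1 and Fibcd1, had 79 counts in all, and Hmcn2, upstream of Ass1, had 49, too few to test. Mir6998, inside Fubp3, was not analysed here. Of the 43 genes tested within 1 Mb of Prdm12, 18 had a negative and 25 a positive log2 fold change, with a median of 0.02 and quartiles of −0.04 and 0.08. Within 5 Mb, 159 genes other than Prdm12 were tested and 2 fell (1.26%, against 0.243% lower over all tested genes), Ass1 and the non-coding gene F730016J06Rik, which runs from 28095477 to 28127731. F730016J06Rik averaged 1.67 ± 0.389 CPM in the WT libraries and 0.539 ± 0.207 CPM in the KO ones (SD, n = 4 per group), a log2 change of −1.62 with an adjusted p of 0.036 (edgeR). It was called in 9 of 16 alternatives, and not without any 1 of WT replicates 3 and 4 or KO replicates 1 to 4 (adjusted p = 0.0596 to 0.174 in edgeR) nor with the muscle and mesenchyme score (−1.24, adjusted p = 0.857). The count within 5 Mb was 0 in those 7 fits. The median over the 159 was 0.00, with 79 genes below and 80 above 0.

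**Figure D5:**
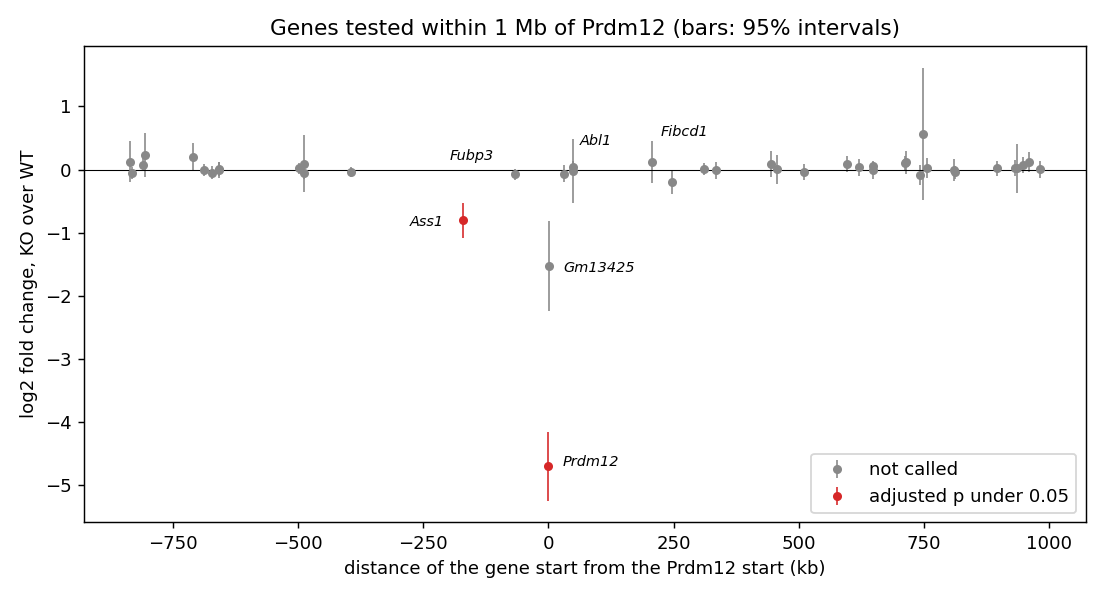
Log2 fold change of KO over WT (points, with 95% intervals as bars) for Prdm12 and the 43 other genes tested within 1 Mb, by the distance of their start from that of Prdm12 in kb. Red marks an adjusted p under 0.05. Prdm12 at −4.70, Gm13425 at −1.53 and Ass1 at −0.80 stand below the other genes, most of them close to 0. The lowest of the others is Lamc3 (−0.20, interval −0.39 to −0.01) and the highest Lcn2 (0.56, interval −0.49 to 1.62), neither called.

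By the root mean square difference of centred log2 CPM over the 8 libraries, the gene most like Prdm12 among 14396 genes was Cdhr1, a cadherin-related gene on chromosome 14, at 1.15 log2 units. Cdhr1 stood at 9.39, 21.3, 21.7 and 14.2 CPM in WT and 2.71, 3.12, 3.49 and 2.32 CPM in KO. Its lowest WT library was WT replicate 1, as for Prdm12, a likeness that the choice by this measure favours. The third on this measure was Rpl3-ps1, a ribosomal protein pseudogene on chromosome X (1.27 log2 units), at 2.02 CPM in WT replicate 1, 18.4 to 21.8 CPM in the other WT libraries and 1.4 to 2.1 CPM in KO. Its groups overlapped, it did not pass (adjusted p = 0.393 in edgeR's test), and its reads can be shared with near-identical copies. Among the neighbours Gm13425 ranked 6 and Ass1 ranked 34. The fall of Prdm12 in KO leads this measure, so the ranks largely restate which genes fell. Gm13425 was a candidate only through its WT mean (1.09 CPM, against 0.36 in KO).

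Of 20 genes listed as partners of Prdm12 or as parts of the sensory and ventral spinal programmes it belongs to, 4 fell, 0 rose and 16 did not pass, where 0.243% of all tested genes were called as lower. The median log2 fold change was −0.16, against −0.003 over all tested genes. The list was drawn up with earlier results of these libraries known, so its direction is not independent evidence. The count was 8 without WT replicate 1, and 1 or 2 without any 1 of WT replicates 2 to 4 or KO replicates 1 to 4. It was 0 with the replicate block and 1 with the muscle and mesenchyme score. Those that fell included Neurog1, a proneural factor of sensory precursors (−0.48, adjusted p = 0.0182), and Pou4f1, a sensory neuron homeodomain factor (−0.52, adjusted p = 0.0188, both in edgeR's test). Neurog1 was called in 10 of 16 alternatives and Pou4f1 in 7, and both were uncalled with the block and with the score (adjusted p = 0.0536 and 0.424 for Neurog1, 0.105 and 0.3 for Pou4f1, in edgeR). Foxd3 also fell (−0.57) and was called in 7 of 16. It and the genes that follow, like Asl above, were named after their values were seen. The genes for the chromatin partners did not pass. Mean CPM was 341.0 (WT) and 347.2 (KO) for Ehmt2, which encodes G9a, 250.1 and 246.1 for its paralogue Ehmt1, 226.2 and 220.3 for Wiz, and 111.6 and 106.7 for Zfp644, with adjusted p from 0.908 to 0.975 in edgeR's test. Of the homeobox genes listed for ventral progenitors and V1 interneurons, none passed in edgeR's test: Dbx1 stood at 0.25 (adjusted p = 0.731), Nkx6-1 at 0.11 (adjusted p = 0.822), Nkx6-2 at 0.29 (adjusted p = 0.882) and Dbx2 at −0.12 (adjusted p = 0.957). En1, the V1 marker, averaged 24.1 CPM in WT and 16.4 in KO (−0.54, adjusted p = 0.393 in edgeR's test). Its groups overlapped, at 17.4 to 28.6 CPM in WT and 13.4 to 18.5 in KO.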

How the data were processed

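RNA was measured by sequencing in 8 libraries of mouse embryonic dorsal root ganglia with spinal cord, 4 WT and 4 KO, grouped by the sample titles. The authors deposited raw read counts per Ensembl gene, 1 file per library. The submitters' processing notes name the aligner STAR 2.3.0e, the counter featureCounts 1.4.6-p1, build mm10, and also DESeq2 1.8.2, SAMtools 0.1.18 and FastQC 0.10.1. Not given in the sources used here were strand setting, annotation release and treatment of shared reads. The 5 summary rows held 0 counts and were left out. Symbols, positions and exon lengths came from GENCODE M21 (36602 of 38355 identifiers matched).

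Counts were fitted over the whole table with edgeR 4.0.16 (R 4.3.3; filterByExpr, TMM, robust quasi-likelihood F test, group alone) and adjusted by Benjamini-Hochberg over 16068 genes at 0.05. The SE is the log2 fold change over the square root of F, and 95% intervals use the fit's degrees of freedom. Counting intervals are exact binomial. Between libraries of a group, counts differed beyond sampling noise, so all 8 were kept. The depth of 23088908 to 67782435 counts per library limits members near 1 CPM. The script was tested on simulated data.

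Alternatives were DESeq2 1.42.0, limma-voom (limma 3.58.1) with quality weights, library totals, no filter, at least 1 CPM in 4 libraries, a replicate block, a muscle and mesenchyme score and leaving out each library. A thinned WT replicate 1 and the alternatives for lists and for named genes outside the members were added after seeing the data. Named genes were the members, genes called within 5 Mb, and up to 3 genes of each list with the smallest p. The 3 genes most like Prdm12 were also named. Likeness was the root mean square difference of log2 CPM (prior count 2), among genes averaging at least 1 CPM in the higher group. Some genes named by this rule are not reported here. The members and lists were chosen with earlier results of these data known.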

Additional observations from a re-analysis of the deposited data

Results flagged for a closer look

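Of the 16 groups of 4 values examined for the members, 1 held a library far from the other 3. Fubp3 in KO replicate 1 stood at 107.2 CPM, while the other KO libraries lay between 99.6 and 100.4 CPM, so the gap made up 0.886 of the group's range. Chance alone places about 1 in 20 such groups past this limit. Without KO replicate 1 the log2 fold change of Fubp3 was −0.10 and did not pass (adjusted p = 0.789 in edgeR's test).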

How the results depend on the processing

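In all 16 alternatives Prdm12 stayed called, and Exosc2, Fubp3, Abl1 and Fibcd1 stayed uncalled, as did Gm13427 in the 15 that tested it. Ass1 was −0.80 with a replicate block, −0.78 with the muscle and mesenchyme score and −0.70 with WT replicate 1 thinned, without passing, and ran from −0.84 to −0.75 when 1 library was left out. Gm13425 passed at −1.57 with DESeq2, −1.54 with no filter and −1.62 with limma-voom, and ran from −1.71 to −1.35 without 1 library; with at least 1 CPM in 4 libraries neither it nor Gm13427 was tested. With the muscle and mesenchyme score Abl1 was −0.003 and Fibcd1 −0.16, each reversed. Gm13427 was −0.37 with that score and ran from −0.11 to 0.065 without 1 library.

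Members called were 1 with the replicate block, the score or thinning, 3 without WT replicate 1 and 1 without any other 1 library. All genes called were 48 in the analysis reported, 101 with DESeq2, 125 with limma-voom, 16 with the block and 7 with the score. They were 133 without WT replicate 1 and 15 to 30 without any other 1 library. Within 1 Mb of Prdm12 the other genes called were 2 with DESeq2, no filter or limma-voom, and 0 with the block, the score or thinning. They were 2 without WT replicate 1 and 0 without any other 1 library. Within 5 Mb they were 4 with limma-voom, 1 with the block or thinning, 0 with the score, 3 without WT replicate 1, and 0 or 1 without any other 1 library. Of the 20 partner and programme genes 7 were called with DESeq2, 0 with the block and 1 with the score. The count was 8 without WT replicate 1 and 1 or 2 without any other 1 library. The ratio of Gm13425 to Prdm12 counts differed by 2.93 to 3.39 without 1 library, where the smallest exact permutation p that 3 against 4 libraries allow is 0.057. The causes of these changes were not tested beyond fewer libraries or genes.

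No label says that the replicate numbers pair the libraries, and the correlations given next are too few to settle it. Deviations of same-numbered WT and KO libraries correlated at −0.11, 0.28, −0.19 and −0.01 across genes, and 1 of 8 libraries correlated best with its own number. Depth limits Gm13425, Gm13427 and Ass1, with 184, 137 and 621 counts over all libraries.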
